A study of Drosophila melanogaster with 4 samples.

Results

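Dense runs are stretches of the fly genome in which several narrow regions enriched for H3K9acS10P stand close together without merging into a broad domain. Enriched regions, called clusters here, were taken from the authors' list that combines both ChIP replicates, on the chromosome arms 2L, 3L, 3R and X. Neighbours were joined when the gap between them was at most 2000 bp, and a joined group was kept as a run when it held at least 3 clusters, each under 6000 bp wide. This gave 368 runs with 1316 clusters, out of 7012 clusters on the 4 arms and 8976 in the whole combined list. Of the other clusters on the 4 arms, 947 lay in 228 joined groups of at least 3 that held a cluster of 6000 bp or more. A further 1812 stood in 906 joined groups of 2, called pairs here, and 2937 stood singly. The runs were thus chosen by gap, width and number of clusters, which describe them and are not tested.

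The chromatin came from head nuclei of adult Drosophila melanogaster of the wild-type strain Oregon-R, with the developmental stage given as mixed adult. There were 2 ChIP samples for H3K9acS10P, made with what is called a new lot, and 2 input samples of the same strain and stage, 1 assigned to each ChIP sample. The labels do not say whether the replicates came from separate collections of flies, so their spread may be a technical one. Heads are a mixture of cell types, and whether females, males or both were collected was not stated. The inputs have no values of their own here, and the read depth of all samples is unknown.

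H3K9acS10P is histone H3 that carries an acetyl group on lysine 9 next to a phosphate on serine 10. Acetylated lysine 9 is a mark of active promoters. Serine 10 is phosphorylated in interphase by the kinase JIL-1, which is found in open chromatin and is enriched on the male X, and during mitosis by Aurora B. Promoters of neighbouring genes can lie close together in fly euchromatin. No annotation of the genome release of these files (FlyBase r5) was used, so the runs are given by position and are not tied to genes.

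The longest run showed a row of separate, strong clusters in every list. It lay on 3R from 7030386 to 7071620, measured 41.2 kb and held 8 clusters between 1275 and 5973 bp wide. In replicate 1 it was a run of 7 clusters and 37916 bp, with scores of 0.96 to 1.72, and in replicate 2 a run of 7 clusters and 37929 bp, with scores of 0.92 to 1.67. It was the longest run of each of these lists as well. The score is the authors' own value per cluster. Its scale was not stated, so only differences between scores are read. The combined scores along the run were 0.41, 1.28, 1.65, 1.55, 1.38, 1.00, 1.08 and 1.46. The cluster with 0.41 at the start of the run overlapped none in either replicate. Gaps of 475 to 1959 bp separated the clusters. The lowest score of replicate 1 was at the sixth cluster of the combined list and that of replicate 2 at the seventh.

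The run with the most clusters looked different. It lay on X from 12416904 to 12441912, measured 25009 bp and held 9 clusters that scored between 0.45 and 0.66. Clusters filled 65.0% of its length. Replicate 1 had 3 clusters there, with scores of 0.76, 0.85 and 0.69, and replicate 2 had 3, with scores of 0.66, 0.80 and 0.89. Only the second and the ninth combined cluster overlapped clusters of both replicates, and 5 of 9 overlapped none in either.

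**Figure D1:**
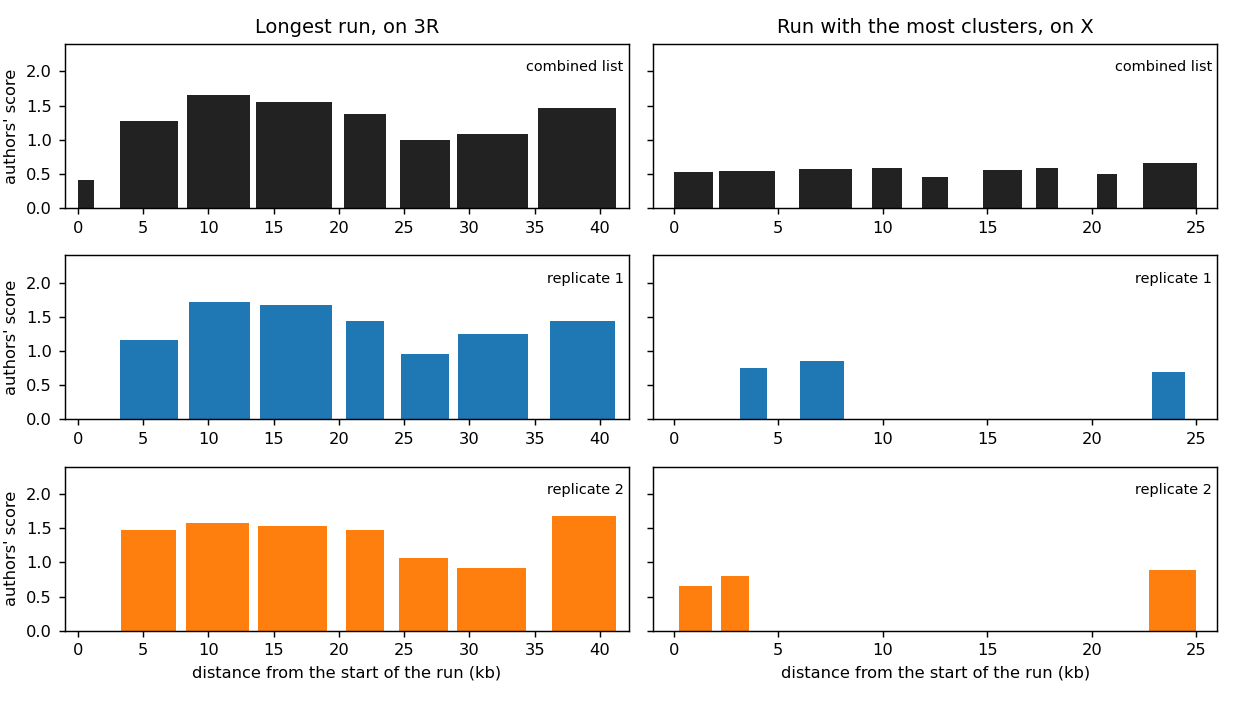
Clusters of the longest run (left, on 3R) and of the run with the most clusters (right, on X) in the combined list and in each replicate; bars span each cluster, their height is the authors' score, and the x axis is the distance in kb from the start of the combined run. On 3R the same 7 clusters appear in all lists, whereas on X the replicates hold 3 clusters each against 9 in the combined list.

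Most runs were short. Of the 368 runs, 228 (62.0%) had 3 clusters, 97 had 4, 25 had 5, 12 had 6, 2 had 7, 3 had 8 and 1 had 9. Run length had a median of 11.1 kb (interquartile range 8.65 to 13.8 kb) and went from 4.20 to 41.2 kb. Together the runs spanned 4.27 Mb, or 4.36% of the 4 arms. Longer runs had more clusters (Spearman's rho = 0.61 across 368 runs), as the joining itself brings about. The number of clusters had little relation to the median score of a run (rho = 0.021).

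Inside a run, clusters took up most of the sequence. The median run was covered to 82.5%, and 63 of 368 runs (17.1%, exact 95% binomial interval 13.4 to 21.4%) were covered to at least 90%. The median gap inside runs was 757 bp (interquartile range 306.5 to 1269.5 bp over 948 gaps), against 3574 bp between all neighbours on the 4 arms. The rule allowed no gap above 2000 bp in a run, so it fixed the order of these medians. It also bears on the covered share. Centres of neighbouring clusters lay a median of 3401.5 bp apart, with an interquartile range of 2647 to 4240 bp. Gaps under 200 bp made up 17.7% of the gaps. Run clusters had a median width of 2328 bp, against 2405 bp for all clusters on the 4 arms, and first, inner and last clusters of a run were alike, with medians of 2309, 2363 and 2338 bp.

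The most closely packed run lay on 3R from 1287368 to 1302088 and was covered to 99.3%. Its 4 clusters scored 0.84, 1.51, 1.32 and 1.54, and gaps of 1, 19 and 85 bp separated them. It also had the highest median score of all runs, 1.42. Replicate 1 held 4 clusters there and replicate 2 held 3, and each gap was bridged in 1 of them: those of 1 and 19 bp by a cluster of replicate 2 and that of 85 bp by a cluster of replicate 1. Next in covered share came runs on 3L from 8592664 to 8608012 (99.1%), on 3R from 17631362 to 17642206 (98.8%), on 2L from 6060102 to 6073060 (98.5%) and on 3L from 9681672 to 9693092 (98.2%). In these 4 runs every cluster overlapped clusters of both replicates.

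Scores in the runs were moderate. Run clusters had a median score of 0.51 (interquartile range 0.42 to 0.79), against 0.54 (0.43 to 0.85) for all clusters on the 4 arms, 0.51 for single clusters and 0.76 for clusters in the joined groups with a wide member. The width limit leaves out the widest clusters, and score goes with width in this list (rho = 0.65 across run clusters and 0.70 across other clusters), so the rule itself bears on this difference. Run medians went from 0.27 to 1.42.

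Within a run, scores could be nearly level or far apart. The score range of a run (highest minus lowest cluster) had a median of 0.33, an interquartile range of 0.15 to 0.63 and a maximum of 1.31. It was 0.30 in runs of 3 clusters, 0.43 in runs of 4 and 0.51 in runs of 5 or more, as a range widens with more values. In joined groups of 3 with a wide member the median range was 0.54. Neighbours inside runs differed by a median of 0.15, against 0.20 for other neighbours at most 2000 bp apart, which include those of groups with a wide member. Score goes with width, so the width limit itself bears on both of these differences. Farther apart the median difference was 0.18 at gaps up to 5000 bp, 0.17 up to 10000 bp and 0.19 beyond, so it had no steady order with distance.

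The correlation of neighbouring scores was lower at wide gaps, although the size of the differences was not ordered by distance. Pearson's r between neighbouring scores was 0.37 inside runs (948 pairs of neighbours) and 0.31 at other gaps of up to 2000 bp, classes that share the same limit on the gap. It was 0.30 at gaps above 2000 and up to 5000 bp, 0.19 above 5000 and up to 10000 bp and 0.12 beyond. These values describe clusters of 1 list, which share libraries and are not independent. The intraclass correlation of score was 0.31 for runs, 0.35 for pairs and 0.17 for joined groups with a wide member, with an SD of 0.25 among clusters of the same run.

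No place within a run held the top score most of the time. In runs of 3 clusters the highest score was at the first cluster in 80 runs, at the middle one in 64 and at the last in 84. In runs of 4 the counts were less even, with 15 of 97 at the first cluster, 23 and 26 at the inner ones and 33 at the last. In 203 of 368 runs (55.2%, exact interval 49.9 to 60.3%) the highest-scoring cluster was also the widest.

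The widest score range was on 3L from 11236698 to 11248966, where 2 clusters scoring 0.39 and 0.36 preceded 1 that scored 1.68. The strong cluster scored 1.63 in replicate 1 and 1.85 in replicate 2. Of the weak ones, the first was found in replicate 1 alone (0.48) and the other in replicate 2 alone (0.55). On X from 22404398 to 22417402, near the centromere end of the assembled arm, strong clusters of 1.68 and 1.84 stood on either side of weak ones of 0.58 and 0.55. Both strong clusters were found in both replicates, at 1.55 and 1.82 in replicate 1 and at 1.87 and 2.03 in replicate 2. The other runs of widest range lay on X from 6860968 to 6876310 (1.28), on 3L from 18886724 to 18899818 (1.27) and on 2L from 3448938 to 3462580 (1.25).

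The 5 runs of 4 or more clusters with the most level scores were weak, but level scores were not limited to weak runs. The most level run of all, named after its values were seen, had 3 clusters on 3R from 16410064 to 16420446 with scores of 1.10 to 1.11, a range of 0.0093, and each was in both replicates. Among runs of 4 or more the smallest range, 0.012, was on 3R from 10037400 to 10045940, where 4 clusters scored 0.37 to 0.38. The inner clusters of this run were in both replicates, at 0.51 and 0.66 in replicate 1 and at 0.52 and 0.39 in replicate 2, so the replicates did not show the same evenness. The next 4 lay on 3R from 623554 to 633000, on 2L from 1394628 to 1400662, on 3R from 20419060 to 20427782 and on X from 11545630 to 11552776. Their ranges were 0.064 to 0.083, and their highest cluster score was 0.51. On X all 4 clusters of that run overlapped none in either replicate.

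**Figure D2:**
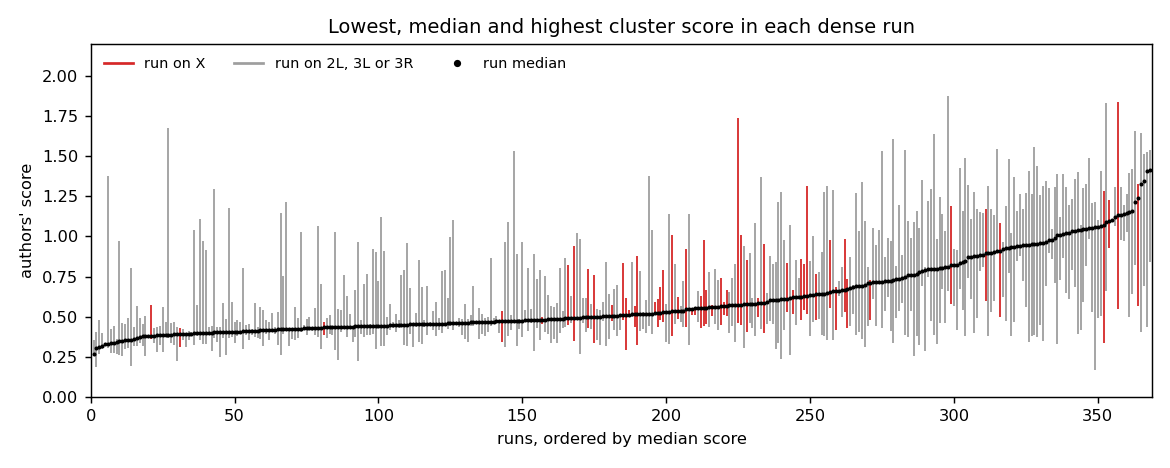
Each vertical line spans the lowest to the highest cluster score of 1 of the 368 runs, ordered along the x axis by the run's median score (black point), with runs on X in red and runs on 2L, 3L and 3R in grey; the y axis is the authors' score. Medians go from 0.27 to 1.42 and single scores up to 1.88, and the lines differ widely in length among runs of similar median.

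The highest median scores were on 3R and X. After the packed run on 3R at 1.42 came runs on 3R from 25569342 to 25578360 (1.41), from 14039852 to 14053676 (1.34) and the longest run (1.33). The fifth lay on X from 14724172 to 14735660 (1.24). There the outer clusters scored 1.33 and 1.24 in the combined list, 1.20 and 1.17 in replicate 1 and 1.51 and 1.45 in replicate 2, and the inner cluster of 0.57 was found in neither. Of the other 9 among the 10 runs with the most clusters, the highest medians were on 3R from 11180936 to 11207524, with 6 clusters over 26.6 kb and a median of 1.15, and on 2L from 18686914 to 18710478, with 6 over 23.6 kb and a median of 0.93. The first of these overlapped clusters of both replicates throughout, and in the second 5 of 6 did.

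Others with many clusters were weaker. On 3L, 8 clusters from 21177718 to 21199704 had a median of 0.44 and 7 from 3485368 to 3503972 had 0.42. In the run of 7, no cluster was in both replicates. Another 7 on 3L from 3041482 to 3062200 had a median of 0.75, with 6 of 7 in both. On X, 8 clusters from 14093618 to 14116798 had a median of 0.56, with 4 in both. The remaining ones had 6 clusters each, as did 12 runs in all, of which the longest are given, on 2L from 8081424 to 8101430 (median 0.45) and on 3R from 27456356 to 27476152 (0.44).

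Support by the replicates varied widely among run clusters. In the combined list, 689 of 1316 run clusters met a cluster in each replicate by at least 1 bp (52.4%, exact interval 49.6 to 55.1%), against 54.6% of all clusters on the 4 arms. A further 251 (19.1%) overlapped 1 replicate and 376 (28.6%, 26.1 to 31.1%) overlapped neither, against 28.7% of all clusters. Replicate 1 held 61.4% of run clusters (62.8% of all clusters) and replicate 2 held 62.4% (63.1%), a mean of 61.9% ± 0.70 (SD, n = 2). The share in both was thus close to that of the list as a whole. The combined list and the replicate lists share their samples, so this overlap is no independent check. Among run clusters in both replicates, the replicates' scores ranked alike (rho = 0.83 over 689 clusters), as they did for other clusters in both (0.85 over 3139).

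The share in both replicates was higher the wider the cluster. Among run clusters of 1000 to under 2000 bp, 4.47% were in both replicates, against 3.38% of equally wide clusters in pairs and 4.09% of single ones. From 2000 to under 3000 bp the shares were 70.3%, 70.6% and 72.9%, and from 3000 to under 4500 bp 90.7%, 89.5% and 87.5%. From 4500 to under 6000 bp they were 95.4%, 97.8% and 96.7%. In each width class the exact intervals of run, pair and single clusters overlapped. These intervals treat clusters as independent, so their overlap does not show that the shares are equal.

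**Figure D3:**
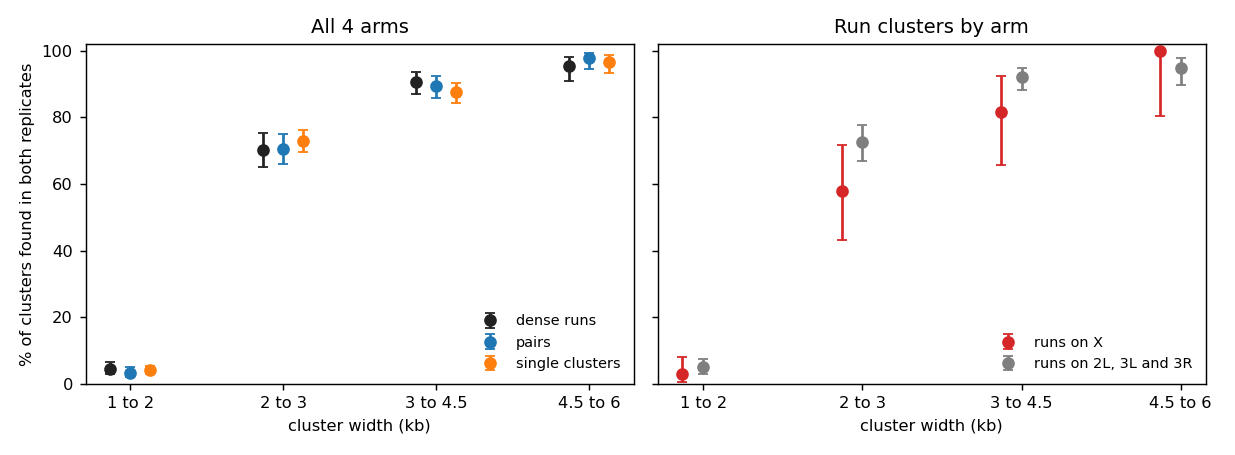
Share of clusters found in both replicates (y axis, %) by cluster width in kb (x axis) for run, pair and single clusters on the left and for run clusters on X and on 2L, 3L and 3R on the right; bars are exact 95% binomial intervals, which cover counting error only. The share for runs is 4.47% in the narrowest class and 95.4% in the widest, with similar values for pairs and single clusters.

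A run as a whole was often thinner in the replicates. The share of clusters in neither was 28.6% for runs and 28.7% for all clusters. The counts below were not made for other joined groups, so they are not read as particular to runs. In 79 of 368 runs (21.5%, exact interval 17.4 to 26.0%) every cluster was in both replicates, with a median of the run median scores of 0.89. In 231 (62.8%) at least 1 cluster was in neither, and in 15 (4.08%) every cluster was in neither, with a median score of 0.43. At least 3 clusters of replicate 1 met the clusters of 159 runs (43.2%), at least 3 of replicate 2 met those of 161 (43.8%), and both did in 126 (34.2%). When only combined clusters found in both replicates were joined, an alternative added after the data were seen, 104 runs were formed in place of 368. Without replicate 1, joining only combined clusters found in replicate 2, there were 131 runs, and without replicate 2 there were 141.

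Replicate clusters covered little of the gaps inside runs. Replicate 1 covered 1.27% of the bp in these gaps and replicate 2 covered 1.97%. Replicate 1 bridged 9 of 948 gaps in full and replicate 2 bridged 16, and no gap was bridged in full by both. Many of these gaps lie beside a cluster that a replicate lacks, so these values do not show that the same separations recur. Of 305 gaps between run clusters that were each found in both replicates, 172 (56.4%) had no bp of a cluster in either. Gaps outside runs were not examined in this way.

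The same rule gave 252 runs in replicate 1 and 209 in replicate 2 (230.5 ± 30.4, SD, n = 2). The replicate lists were shorter, with 4990 and 4997 clusters on the 4 arms against 7012 in the combined list. Runs held 17.6% of the clusters in replicate 1 and 14.3% in replicate 2, against 18.8% in the combined list. The median lengths of the replicate runs were 11549 and 11012 bp, close to the 11104 bp of the combined list. Their median score range was 0.47 in replicate 1 and 0.46 in replicate 2. Of the runs of the combined list, 103 (28.0%) overlapped a run of replicate 1, which is 40.9% of replicate 1's runs. For replicate 2 it was 89, or 24.2% of combined and 42.6% of replicate runs. Of the replicate runs, 127 of 252 in replicate 1 and 94 of 209 in replicate 2 met no combined run and instead overlapped a combined cluster of 6000 bp or more.

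X had the closest neighbours and the fewest runs. On X, 45.0% of neighbours in the combined list were at most 2000 bp apart, against 32.4% on 2L, 34.9% on 3L and 35.3% on 3R (36.7% over the 4 arms). The replicates gave 40.2% ± 1.95 on X and 27.0% ± 0.46 on the 3 autosomal arms together (SD, n = 2 each). Yet X had 55 runs, against 78 on 2L, 111 on 3L and 124 on 3R. That is 2.45 runs per Mb on X, against 3.39, 4.52 and 4.44. The share of clusters that lay in runs was 13.4% on X, against 17.3% on 2L, 22.8% on 3L and 20.5% on 3R, with 18.8% over the 4 arms. X held 14.9% of the runs (exact interval 11.5 to 19.0%) and 22.9% of the length of the 4 arms. Its share of the runs was 8.40% when only combined clusters found in replicate 2 were joined, and 9.22% with those found in replicate 1. It was 5.77% when each joined cluster had to be in both. These filters took clusters from the combined list, which both replicates entered, so they do not show X without 1 replicate. The replicates' own lists gave X 27.0% of the runs in replicate 1 and 19.6% in replicate 2.

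The width limit removed most joined groups on X. Of 162 groups of at least 3 clusters on X, 107 (66.0%) held a cluster of 6000 bp or more, against 121 of 434 (27.9%) on the autosomal arms. In the replicates this share was 55.7% ± 10.8 on X and 21.1% ± 0.068 on autosomal arms (SD, n = 2 each). The low number of runs on X was not seen in both replicates. X held 68 of 252 runs (27.0%, exact interval 21.6 to 32.9%) in replicate 1 and 41 of 209 (19.6%, 14.5 to 25.7%) in replicate 2, a mean of 23.3% ± 5.21 (SD, n = 2). Of replicate 1's runs on X, 49 of 68 overlapped a combined cluster of 6000 bp or more and no combined run, and of replicate 2's 30 of 41 did. No test was run on the difference between X and the other arms.

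**Figure D4:**
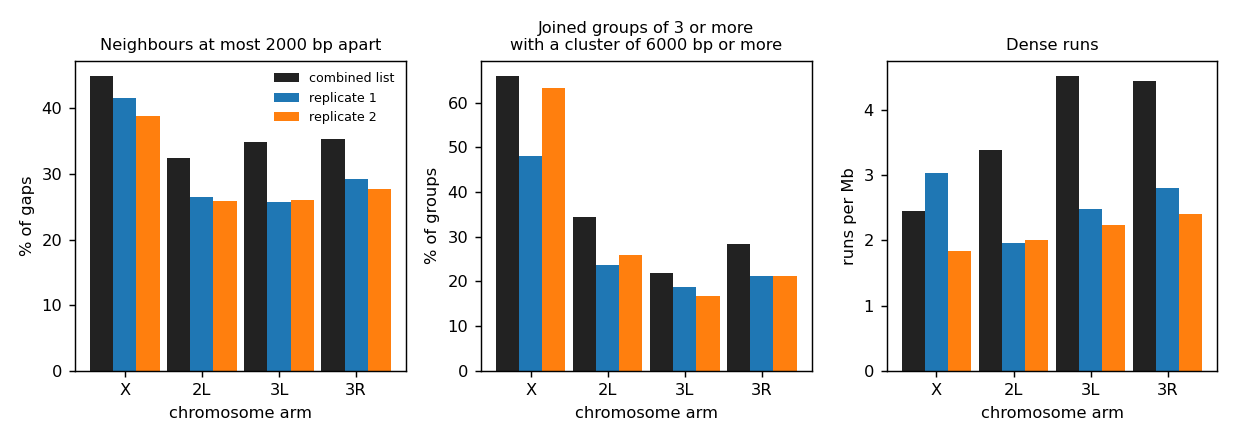
Share of neighbouring clusters at most 2000 bp apart (left), share of joined groups of at least 3 clusters that hold a cluster of 6000 bp or more (middle) and dense runs per Mb (right) on X, 2L, 3L and 3R, in the combined list and in each replicate. X stands highest in the left and middle panels in every list; in the right panel it is lowest in the combined list and in replicate 2 and highest in replicate 1.

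Runs on X had less support from the replicates than runs elsewhere. Of 211 run clusters on X, 80 (37.9%, exact interval 31.3 to 44.8%) were in both replicates, against 609 of 1105 (55.1%, 52.1 to 58.1%) on autosomal arms. Of all clusters, 51.0% on X and 55.6% on autosomal arms were in both. Single clusters on X, which are narrow as well, had 34.2%, against 51.8% for single autosomal ones. Run clusters measured a median of 1997 bp on X and 2423 bp on autosomal arms. From 2000 to under 3000 bp, 58.0% (43.2 to 71.8%) of run clusters on X were in both, against 72.5% (66.9 to 77.6%) of autosomal ones. Over all clusters of this width the shares were 52.0% on X and 75.2% on autosomal arms, so a lower share on X was not particular to runs. From 4500 to under 6000 bp the order was the other way, with 17 of 17 run clusters on X and 94.8% of autosomal ones in both. Runs in which every cluster was in both replicates numbered 2 of 55 on X and 77 of 313 on autosomal arms. Other joined groups were not counted in this way, so this difference is not read as particular to runs.

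The lower end of the scores in runs lay higher on X than elsewhere. Run medians on X had a lower quartile of 0.51 and a median of 0.56, against 0.43 and 0.49 on autosomal arms, while the upper quartile was 0.63 on X and 0.75 on autosomal arms. Among run clusters under 2000 bp the median score was 0.50 on X and 0.40 on autosomal arms, and over all clusters of that width it was 0.51 and 0.40. The lowest score of a run had a median of 0.47 on X and 0.39 on autosomal arms. Run length was similar, with medians of 10.8 kb on X and 11.1 kb on autosomal arms.

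Runs were spread along the arms. Of 96 full windows of 1 Mb, 3 held no run: 2L from 16 to 17 Mb, 2L from 22 to 23 Mb and X from 21 to 22 Mb, with 66, 22 and 37 clusters. The window with the most run clusters on each arm was 3R from 1 to 2 Mb (35 of 108 clusters), 3L from 17 to 18 Mb (32 of 86), 2L from 8 to 9 Mb (29 of 82) and, on X, the windows from 0 to 1 Mb (21 of 80) and from 14 to 15 Mb (21 of 66). The median distance from a run to the next was 254 kb on X, 159 kb on 2L, 137 kb on 3L and 140 kb on 3R. When each arm was divided into 10 equal segments counted from the telomere, the segments pooled over the 4 arms held between 16.6 and 22.9% of their clusters in runs. Single arms departed more from their mean. Segment 3 of X had 3 of 158 clusters in runs and segment 8 of 2L had 3 of 139, whereas segment 7 of X had 39 of 162.

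**Figure D5:**
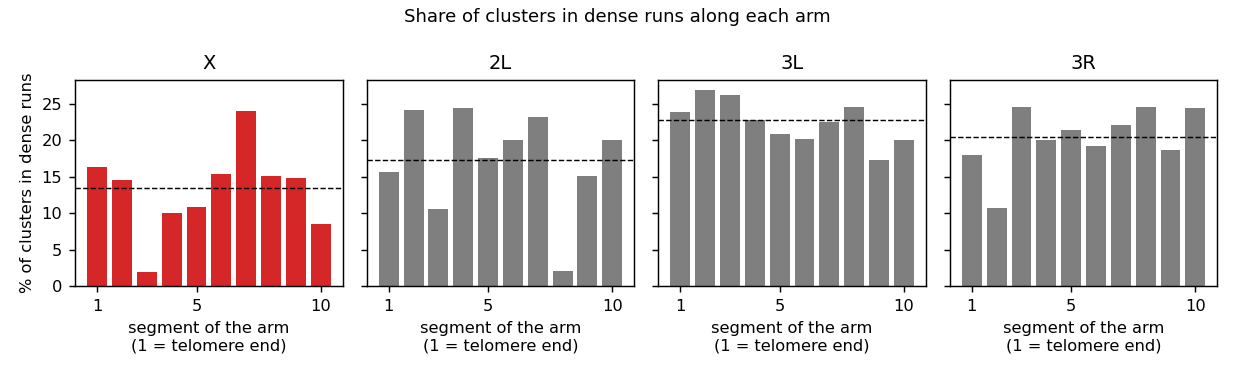
Share of clusters in dense runs (y axis, %) in each of 10 equal segments of an arm (x axis, from the telomere end to the centromere end) for X, 2L, 3L and 3R in the combined list; the dashed line is the arm's mean. The share is 1.90% in segment 3 of X and 2.16% in segment 8 of 2L, while 3L stays between 17.3 and 27.0%.

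The distance from runs to broad clusters differed between arms. The nearest cluster of 6000 bp or more lay a median of 42.0 kb away from a run, and 57.2 kb away from single clusters under 6000 bp. It was 18.3 kb on X, where such clusters are more frequent (19.7% of clusters, against 8.09% on autosomal arms). Within 10 kb of a run a broad cluster was found for 56 of 368 runs (15.2%), and for 333 of 2718 narrow single clusters (12.3%). By arm it was 17 of 55 runs on X (30.9%), against 19.2% on 2L, 8.11% on 3L and 12.1% on 3R. Narrow single clusters were not counted by arm, so whether the values on X are particular to runs was not tested.

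Many narrow run clusters carried exactly the same score as another cluster. In the combined list on the 4 arms, 282 of 1316 run clusters (21.4%) had a score that occurred more than once at the precision given, against 20.6% of clusters outside runs. The share in runs was thus close to that outside. Among run clusters under 2000 bp it was 227 of 514 (44.2%), against 55 of 802 (6.86%) among wider ones. Clusters outside runs were not counted by width, so these values are not read as particular to runs. The most frequent value, 0.45084, was given to 13 run clusters and to 86 clusters outside runs, of widths between 1001 and 4267 bp. How these repeated scores arose was not tested.

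The rule's limits fell within continuous distributions. The largest gaps joined were 1999 bp, on 2L and 3R, and the smallest not joined were 2001 bp and 2005 bp on X. The widest cluster in a run measured 5989 bp, on 3L from 16139184 to 16151920, followed by 5985 bp on X. The narrowest clusters that kept a joined group out measured 6001 and 6003 bp, both on X. With a gap of at most 1000 bp there were 194 runs, and with a width limit of 4000 bp there were 205.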

How the data were processed

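Positions and scores come from the deposited lists of enriched regions, on FlyBase r5 per the file headers. Bowtie 0.12.7 is named in the submitters' processing notes. The score is the deposited value per region. The caller, its threshold, the score's scale and how the combined list was made were not given in the sources used here. Depth is unknown, so no counting limit can be set for a region. Starts and ends are 1-based and inclusive, and a gap counts the bases between clusters. A cluster counted as found in a replicate when at least 1 bp overlapped. Shares have exact (Clopper-Pearson) 95% intervals, which treat clusters as independent. No test between groups was run, since the runs were chosen on these values and 1 group of 2 ChIP samples is available. Joining was tested on 20 simulated lists, each with 100 joined groups on 2L, and recovered the number of runs in 20. This checks the joining step alone and not the runs found here. The members, alternatives and rule for named runs (most clusters, longest, highest median score, widest and narrowest score range, highest covered share) were chosen with earlier results of these data known. Chromosome arm 2R was not analysed here. Python 3.11.15, pandas 2.3.3, scipy 1.17.1 and matplotlib 3.10.9 were used.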

Additional observations from a re-analysis of the deposited data

How the results depend on the processing

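The values as reported were 368 runs, 1316 run clusters, 18.8% of clusters in runs, 14.9% of runs on X, a median length of 11104 bp, a median score range of 0.33, 52.4% of run clusters in both replicates and 43.5% of runs met by at least 3 clusters of a replicate (mean of both). A gap of at most 1000 bp gave 194 runs, 645 run clusters, 9.20% of clusters in runs, 19.6% of runs on X, a median length of 9873 bp, a median score range of 0.30 and 40.5% of runs met by at least 3. A gap of at most 1500 bp gave 14.0% of clusters in runs and a median length of 10551 bp. With at most 3000 bp there were 26.1% of clusters in runs, a median length of 12405 bp, a median score range of 0.35 and 45.0% of runs met by at least 3. Requiring 4 clusters gave 140 runs, 632 run clusters, 9.01% of clusters in runs, a median length of 14072 bp, a median score range of 0.47 and 57.9% of runs met by at least 3. Requiring 2 clusters gave 1101 runs, 2782 run clusters, 39.7% of clusters in runs, a median length of 6929 bp, a median score range of 0.19 and 16.2% of runs met by at least 3. A width limit of 4000 bp gave 205 runs, 731 run clusters, 10.4% of clusters in runs, a median length of 9369 bp, a median score range of 0.21, 40.6% of run clusters in both replicates and 29.5% of runs met by at least 3. A width limit of 10000 bp gave 26.8% of clusters in runs, 19.1% of runs on X, a median length of 12795 bp, a median score range of 0.42, 58.7% of run clusters in both replicates and 54.7% of runs met by at least 3. Clusters above the median score gave 85 runs, 277 run clusters, 7.90% of clusters in runs, a median length of 12127 bp, a median score range of 0.45, 94.9% of run clusters in both replicates and 91.8% of runs met by at least 3. Clusters found in at least 1 replicate gave 179 runs, 604 run clusters, 12.1% of clusters in runs, a median length of 12165 bp, a median score range of 0.45, 78.6% of run clusters in both replicates and 77.4% of runs met by at least 3. Clusters found in both replicates, chosen after seeing the data, gave 104 runs, 347 run clusters, 9.06% of clusters in runs, 5.77% of runs on X, a median length of 12827 bp, a median score range of 0.45, 100% of run clusters in both replicates and 100% of runs met by at least 3. When 50% of a cluster had to be covered there were 47.3% of run clusters in both replicates and 38.6% of runs met by at least 3. With 1 replicate left out (only clusters found in the other one joined), the values ran as follows: 131 to 141 runs, 437 to 479 run clusters, 9.87% to 10.9% of clusters in runs, 8.40% to 9.22% of runs on X, a median length of 12611 bp to 12675 bp, a median score range of 0.47 to 0.50, 100% of run clusters in the remaining replicate and 97.7% to 99.3% of runs met by at least 3. Shares of 100% follow from these filters themselves, which also let fewer clusters enter the joining. The causes of the other shifts were not tested. Values not listed moved by less than 1.5 times (counts), their exact interval (shares) or the SD between the replicate lists (medians). The share of runs met by at least 3 is also listed where it moved less than that. Its 40.5% and 45.0% lie inside the exact intervals of the reported value, 38.1 to 48.4% in replicate 1 and 38.6 to 49.0% in replicate 2. X held less than its 22.9% of the length of the 4 arms in every alternative listed here that joined the combined list. These alternatives are filters of that 1 list or other limits on it, and both replicates entered it. The replicates' own lists differed, with 27.0% of runs on X in replicate 1 and 19.6% in replicate 2. No paired analysis was possible because only the ChIP samples have values here, so no second group carries the replicate numbers. The unknown depth limits what can be said of weak clusters found in 1 list alone.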
